A study of Homo sapiens with 8 samples.

Results

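The genes described here are 34 targets of the transcription factor ATF4 and genes of amino acid supply. They were taken by name, and all 34 were found by Ensembl identifier among the 58395 genes of a raw count table and passed the filter on low counts. They fall into 9 regulators, 6 amino acid transporters, 6 genes of serine and folate (one-carbon) metabolism, 6 cytosolic aminoacyl-tRNA synthetases and 7 other enzymes, receptors or secreted factors. RNA came from AB8, an established human cell line derived from podocytes, the filtering epithelial cells of the kidney glomerulus. Every library, controls included, came from cells carrying the construct pIND21_hCrb2+GFP_S267A, from passages 3 to 8 after modification. The construct puts human CRB2 with the S267A change, together with GFP, under doxycycline control. CRB2 spans the cell membrane and organises apical polarity with other Crumbs complex proteins. In 4 libraries the cells were not induced, and in 4 they had been induced with doxycycline for 48 h. Cells that received the drug but lack the construct were not analysed here. Effects of doxycycline, GFP, raised CRB2 and the S267A change on these genes cannot be told apart. Each group has libraries numbered 1 to 4, and a pair below means the non-induced and the induced library of the same number.

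ATF4 is the main transcription factor of the integrated stress response. Kinases that sense amino acid shortage, unfolded protein in the endoplasmic reticulum, viral RNA or lack of heme phosphorylate the translation initiation factor eIF2, which lowers general protein synthesis and raises translation of ATF4 mRNA. Because much of this control acts on translation, the level of ATF4 mRNA does not give the level of the protein. ATF4 binds with C/EBP partners to a composite element, and its known targets import amino acids, make serine, glycine, asparagine and cysteine, charge tRNAs and, in DDIT3, TRIB3 and CHAC1, take part in stress-induced death or feedback.

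Promoter windows are shown first because they carry the letters by which ATF4 and C/EBP partners are known to recognise many of these genes. The core TGATGNAA was searched on both strands in RefSeq windows of 300 bases, from 250 bases before to 50 after an annotated start (GRCh38.p14). Of the 28 members with a window, 9 held a match (32.1%), or 9 of their 41 windows (22%). By gene, a match was held by 4.46% of all 27305 genes with a window and 2.7% of the 10968 tested ones. Over all 35116 windows the share was 3.62%, and over the 15952 windows of tested genes it was 1.99%. The members were picked as ATF4 targets, so their share describes the choice of genes and was not tested. Matches lay in the windows of CEBPG, SLC7A1, SLC3A2, SLC1A4, NARS1, GARS1, MARS1, ASNS and CHAC1. Whole windows are printed for ASNS, whose promoter is the textbook case, for CHAC1, and for the 3 matching genes whose level rose in the blocked test below. For the remaining 4, the match with 16 bases on each side is printed. Capitals mark the match, read 5′ to 3′ on the gene's strand.
ASNS: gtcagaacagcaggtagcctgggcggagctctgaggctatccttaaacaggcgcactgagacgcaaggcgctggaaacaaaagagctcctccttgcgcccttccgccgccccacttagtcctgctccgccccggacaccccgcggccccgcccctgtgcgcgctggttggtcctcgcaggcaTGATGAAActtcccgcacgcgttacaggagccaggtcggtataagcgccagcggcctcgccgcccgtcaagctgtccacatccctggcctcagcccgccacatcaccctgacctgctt
CHAC1: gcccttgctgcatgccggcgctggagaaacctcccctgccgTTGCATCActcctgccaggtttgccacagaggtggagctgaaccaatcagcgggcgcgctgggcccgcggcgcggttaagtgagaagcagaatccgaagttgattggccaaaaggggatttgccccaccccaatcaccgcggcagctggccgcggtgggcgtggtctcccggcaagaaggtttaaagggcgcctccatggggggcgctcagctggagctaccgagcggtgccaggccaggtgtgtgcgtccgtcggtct
CEBPG: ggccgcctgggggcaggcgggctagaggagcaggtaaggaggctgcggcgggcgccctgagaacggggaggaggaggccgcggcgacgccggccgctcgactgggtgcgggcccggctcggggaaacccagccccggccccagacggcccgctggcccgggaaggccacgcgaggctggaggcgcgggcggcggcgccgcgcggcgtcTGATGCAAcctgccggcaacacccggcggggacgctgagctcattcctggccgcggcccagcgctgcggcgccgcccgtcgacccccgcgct
SLC7A1: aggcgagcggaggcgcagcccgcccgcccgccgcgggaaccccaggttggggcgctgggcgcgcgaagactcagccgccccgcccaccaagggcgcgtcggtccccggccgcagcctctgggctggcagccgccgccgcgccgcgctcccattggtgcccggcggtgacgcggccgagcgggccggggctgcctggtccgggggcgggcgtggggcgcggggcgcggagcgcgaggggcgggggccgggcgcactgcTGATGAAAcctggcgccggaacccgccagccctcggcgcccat
SLC3A2: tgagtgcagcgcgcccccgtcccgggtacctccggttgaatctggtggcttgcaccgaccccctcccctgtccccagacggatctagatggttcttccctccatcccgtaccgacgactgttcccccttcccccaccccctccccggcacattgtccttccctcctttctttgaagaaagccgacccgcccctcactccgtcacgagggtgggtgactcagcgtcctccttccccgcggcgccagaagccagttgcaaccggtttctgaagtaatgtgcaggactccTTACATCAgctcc
SLC1A4: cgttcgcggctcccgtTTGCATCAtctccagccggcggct
NARS1: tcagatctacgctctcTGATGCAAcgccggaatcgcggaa
GARS1: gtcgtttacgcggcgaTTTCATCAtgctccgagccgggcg
MARS1: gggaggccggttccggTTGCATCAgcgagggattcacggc
These stretches lie at chr7:97872359-97872658 (minus strand) for ASNS, chr15:40953221-40953520 (plus) for CHAC1, chr19:33373863-33374162 (plus) for CEBPG, chr13:29595639-29595938 (minus) for SLC7A1 and chr11:62881449-62881748 (plus) for SLC3A2. The shorter ones lie at chr2:64989376-64989415 (plus) for SLC1A4, chr18:57621799-57621838 (minus) for NARS1, chr7:30594829-30594868 (plus) for GARS1 and chr12:57488048-57488087 (plus) for MARS1. The match began 68 bases before the annotated start in ASNS, 209 before it in CHAC1 and 42 before it in CEBPG. It began at 7 bases after the start in SLC7A1 and 37 after it in SLC3A2. In ASNS, CEBPG, SLC7A1 and NARS1 the core reads TGATGNAA as written, and in the other 5 it lies on the opposite strand. Where no match was found, in DDIT3, TRIB3, SESN2 and SLC7A5 among others, these letters are not in this window, and nothing follows for ATF4 binding. SLC7A11, ALDH1L2, NUPR1, PSPH, SHMT2 and GPT2 had no window in the table.

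The 8 libraries held 16829454 to 23081616 counted reads. Levels are given as CPM, counts relative to the library total after TMM scaling. CRB2 stood at 8.29 to 26.3 CPM before and at 1731 to 4593 CPM after induction, which is 164- to 209-fold higher within pairs, as the labels require. Of 10 podocyte markers, 4 were under 1 CPM in every library, among them the defining marker NPHS1, which codes for nephrin. Together the 10 summed to 1048 to 1342 CPM in non-induced and 1125 to 1262 CPM in induced libraries. Most of this sum came from ACTN4, with means of 928 and 925 CPM. Summed endothelial markers stayed at 0.717 to 1.09 CPM in non-induced and 0.618 to 1.11 CPM in induced libraries, with KDR at 0 throughout, and immune markers at 3.4 to 3.92 and 2.19 to 2.93 CPM. Mesangial or pericyte markers summed to 12.7 to 15.5 and 14.1 to 21.8 CPM, with ITGA8 at 0. Of the 5 parietal or tubular markers, 2 were lower in induced cells in the blocked test, PAX8 by a log2 change of -0.35 and CLDN1 by -0.44, and their sum was 602 to 664 CPM in non-induced against 393 to 552 CPM in induced libraries, with LRP2 at 0. PDGFRB of the mesangial markers (log2 change 0.34) and PODXL of the podocyte markers (0.49) were higher in the blocked test. Both missed in DESeq2 with the block (adjusted p = 0.113 and 0.25) and without pair 1 (edgeR adjusted p = 0.119 and 0.0874). PDGFRB was 0.968-fold in pair 2. Over all tested genes the blocked test called 7.51% higher and 6.29% lower. The part of these markers in the results below was not tested.

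Levels of the 34 genes were set beside each other as CPM per kilobase of exon. The length used merges all annotated exons of a gene, for instance 5674 bases for NUPR1 and 9217 for PHGDH. A transcript in these cells can be shorter, and the part of this length in the order below was not tested. In non-induced cells ATF4 stood highest with 153 ± 24.3 (SD, n = 4), and its range did not overlap that of the next gene, the asparaginyl-tRNA synthetase NARS1, with 76.1 ± 12.3. The leucine transporter SLC7A5 (72.9 ± 10.7), the serine-synthesis enzyme PSAT1 (70.4 ± 17.1) and the glycyl-tRNA synthetase GARS1 (67.0 ± 12.5) followed. At the other end stood ALDH1L2 (0.805 ± 0.17), asparagine synthetase ASNS (0.562 ± 0.384), the glycine transporter SLC6A9 (0.414 ± 0.231) and NUPR1 (0.275 ± 0.335). Of the 33 neighbouring pairs of genes in this order, 30 had overlapping ranges across the 4 non-induced libraries. The amino acid transporters spanned the scale from 72.9 to 0.414 per kilobase, whereas the 6 synthetases all lay between 25.7 and 76.1.

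Induced cells were compared with non-induced cells first without regard to library number, by edgeR's quasi-likelihood test. No member passed at a Benjamini-Hochberg FDR of 0.05 (adjusted p from 0.415 to 0.9996), and 3 of 34 (8.82%) had an unadjusted p under 0.05, near the 9.38% of all tested genes. DESeq2 without pairing also called 0 members, but it gave no p-value for DDIT4. Among all 15637 tested genes the edgeR test called 5 higher (0.032%) and 1 lower (0.0064%). Same-numbered libraries deviated together, so the test was also made with the number as a block, that is, within pairs. It then called 11 of 34 members higher (32.4%) and 1 lower (2.94%), against 7.51% higher and 6.29% lower among all tested genes. The members were chosen with earlier results of these data known, and the part of that choice in these shares was not tested. In what follows, rose and fell refer to this blocked test, and fold changes and log2 changes with their standard errors (SE) are from it. The 11 rises were small, from 1.09- to 1.42-fold. The median log2 change over the 34 genes was 0.09, against 0.00 over all tested genes, and 26 of 34 changes were above 0. In 17 of 34 members the induced library was higher in all 4 pairs (50%), against 18.6% of all tested genes, and in 2 it was lower in all 4 (5.88% against 17%). The groups as a whole overlapped for every member except the cationic amino acid transporter SLC7A1, where they lay apart in the direction of higher in induced; over all genes this held for 3.82%, and for 3.22% in the direction of lower.

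**Figure D1:**
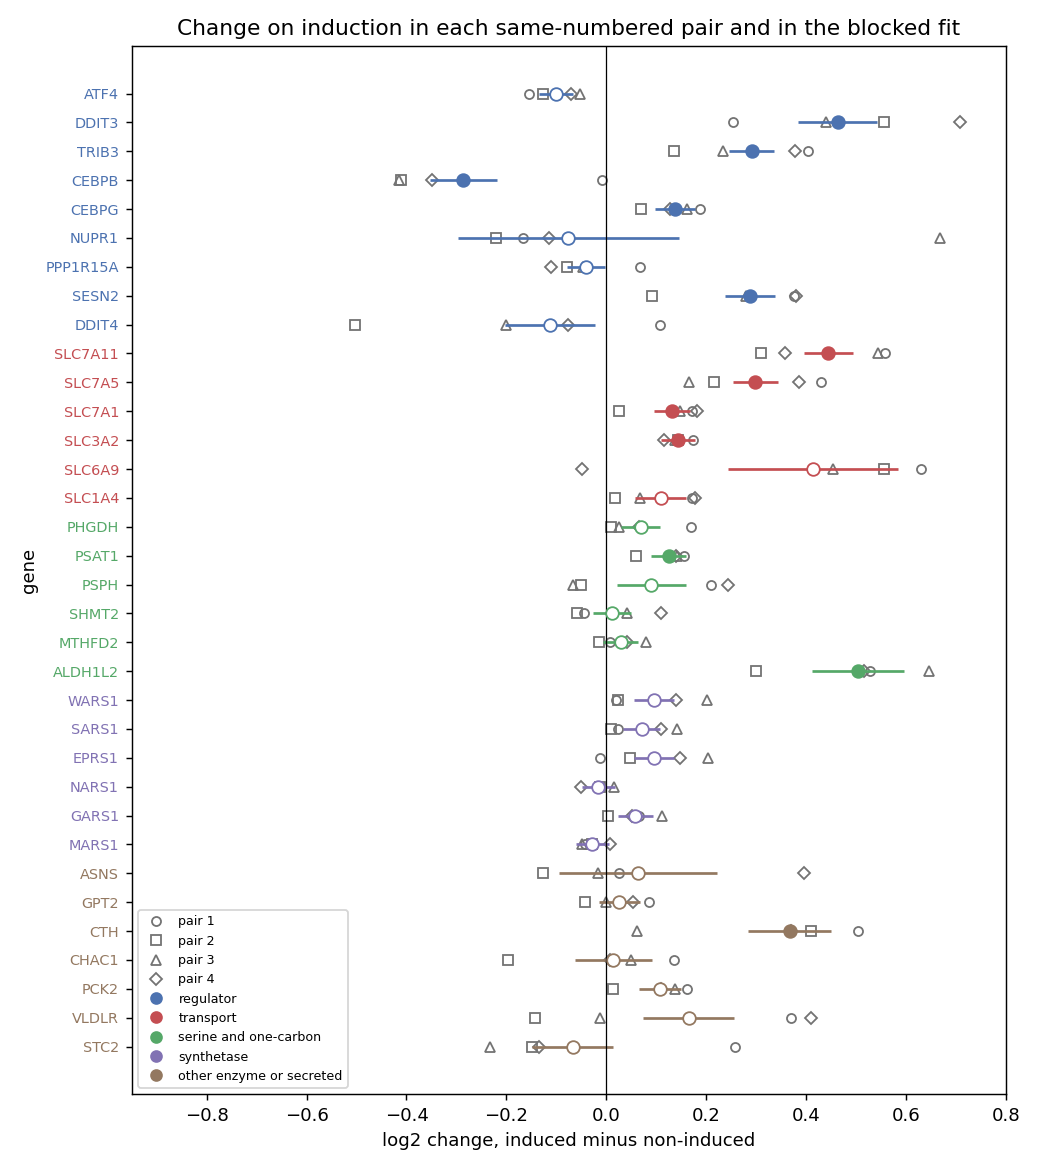
Change of each of the 34 genes on induction. The x axis gives the log2 change, induced minus non-induced; grey open symbols are the 4 same-numbered pairs, coloured circles the blocked estimate with its standard error (bar), filled where the adjusted p was under 0.05. The 11 filled circles to the right run from 0.12 to 0.50, and the 1 filled circle to the left is CEBPB at -0.29.

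The classes differed in how many members were called, and these counts were not tested against each other. Of the 6 transporters 4 rose (66.7%), with a median log2 change of 0.22. Of the 9 regulators 4 rose and 1 fell (44.4% and 11.1%), with a median of -0.04. Of the 6 serine and one-carbon genes 2 rose (33.3%), with a median of 0.08, and of the 7 other enzymes and secreted factors 1 rose (14.3%), with a median of 0.06. Of the 6 synthetases 0 were called by edgeR and 0 by DESeq2 with the block, and the median was 0.06. An unadjusted p under 0.05 was seen for 2 of the 6 (33.3%), near the 28.5% of all tested genes in the blocked test. DESeq2 with the block called 3 transporters (50%), 3 regulators (33.3%) and 1 serine and one-carbon gene (16.7%) higher. It called 1 regulator lower (11.1%) and 0 of the 7 others, against 3.52% higher and 3.24% lower of all tested genes. Without pair 1 the edgeR counts higher were 3, 3, 1 and 0, and 1 regulator and 1 of the others were lower. Without the block the regulator median was 0.01, on the other side of 0, and it moved between -0.24 and 0.57 when single libraries were left out.

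**Figure D2:**
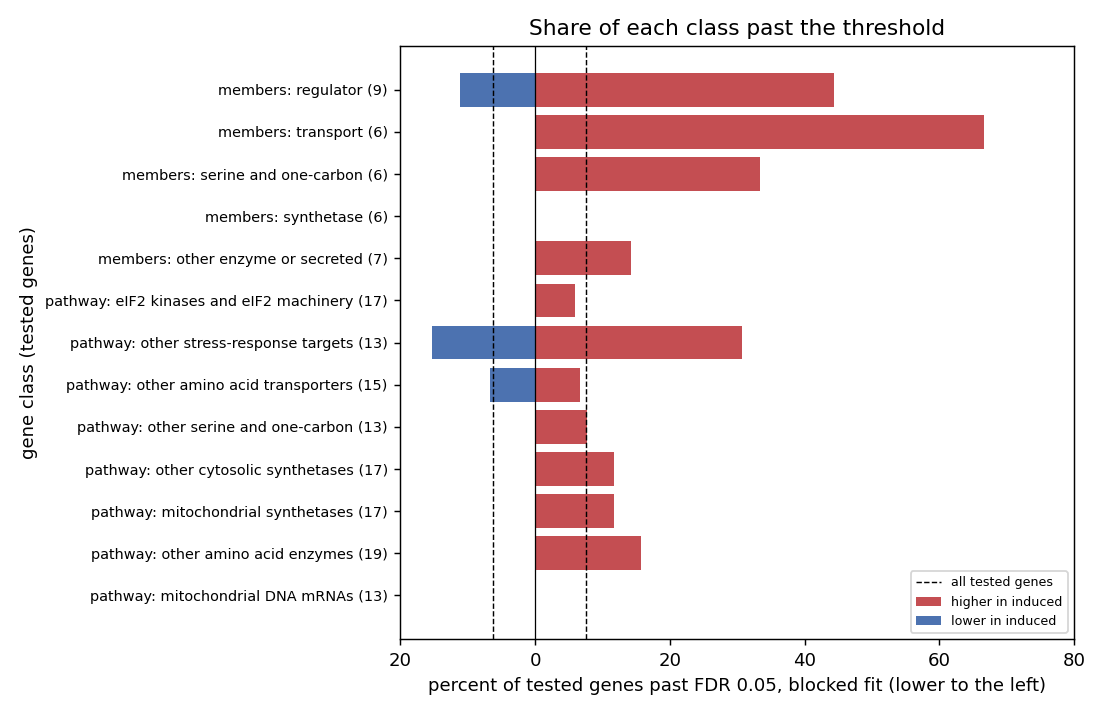
Share of each class past an FDR of 0.05 in the blocked test. The x axis gives the percentage of tested genes of a class that were higher (red, to the right) or lower (blue, to the left) in induced cells, with the number of tested genes in brackets; dashed lines mark 7.51% and 6.29%, the shares of all tested genes. Transporters have the longest bar of the 13 classes, 66.7% of 6 genes, and the synthetases among the members and the mitochondrial DNA mRNAs have none.

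Among the transporters the largest change was that of SLC7A11 (ENSG00000151012; chromosome 4, 138164097 to 138242349, minus strand), the light chain of the cystine-glutamate exchanger. In the order of library number, 1 to 4, which all lists below follow, non-induced cells held 81.9, 63.1, 50.3 and 59.7 CPM. Induced cells held 120.5, 78.2, 73.3 and 76.5 CPM. Every pair moved up, by 1.239- to 1.47-fold, although the groups overlap because non-induced library 1 lies above induced libraries 2 to 4. On the log2 scale the rise was 0.44 (SE 0.049, edgeR adjusted p = 6.9e-05). SLC7A5 (ENSG00000103257; chromosome 16, 87830023 to 87869488, minus strand), which carries leucine and other large neutral amino acids, stood at 297, 336, 333 and 418 CPM before induction. Induced libraries held 400, 390.3, 373 and 545 CPM, and the library numbered 4 was the highest of each group. Its log2 change was 0.30 (SE 0.045, edgeR adjusted p = 0.00099). SLC3A2 (ENSG00000168003; chromosome 11, 62856102 to 62888875, plus strand) codes for the heavy chain that pairs with both of these light chains. Its level was 251, 216, 206 and 234 CPM without and 283, 239, 226 and 254 CPM with induction. The pairs agree closely for this gene, with rises of 1.08- to 1.13-fold, with a log2 change of 0.14 (SE 0.033, edgeR adjusted p = 0.0117).

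SLC7A1 (ENSG00000139514; chromosome 13, 29509410 to 29595688, minus strand), a carrier of arginine and lysine, had the steadiest level of the transporters. Non-induced libraries held 263, 279, 273 and 262 CPM, and induced libraries 296, 284, 302 and 297 CPM. All induced libraries lie above all non-induced ones, by a log2 change of 0.13 (SE 0.037, edgeR adjusted p = 0.029). The glycine transporter SLC6A9 and the alanine-serine-cysteine transporter SLC1A4 were not called. SLC6A9 had 2.14 ± 1.19 and 2.83 ± 1.69 CPM (SD, n = 4), a log2 change of 0.41 with an SE of 0.17 (edgeR adjusted p = 0.125). Of its 5159 exon bases, 404 are shared on the opposite strand with CCDC24. CCDC24 had 7.28 and 5.9 CPM in the means of the groups and was not called (log2 change -0.29, edgeR adjusted p = 0.0872). The effect of this overlap on the SLC6A9 count was not tested. SLC1A4 had 33.2 ± 5.25 and 35.9 ± 6.8 CPM, a log2 change of 0.11 (edgeR adjusted p = 0.174). SLC7A11 and SLC7A5 passed in each of 12 blocked fits, which differ in tool, scaling, filter or the pair left out. SLC3A2 missed without pair 3 (edgeR adjusted p = 0.0785), and SLC7A1 missed without pair 1, 3 or 4 (0.0873, 0.151 and 0.148) and in DESeq2 (0.0814).

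**Figure D3:**
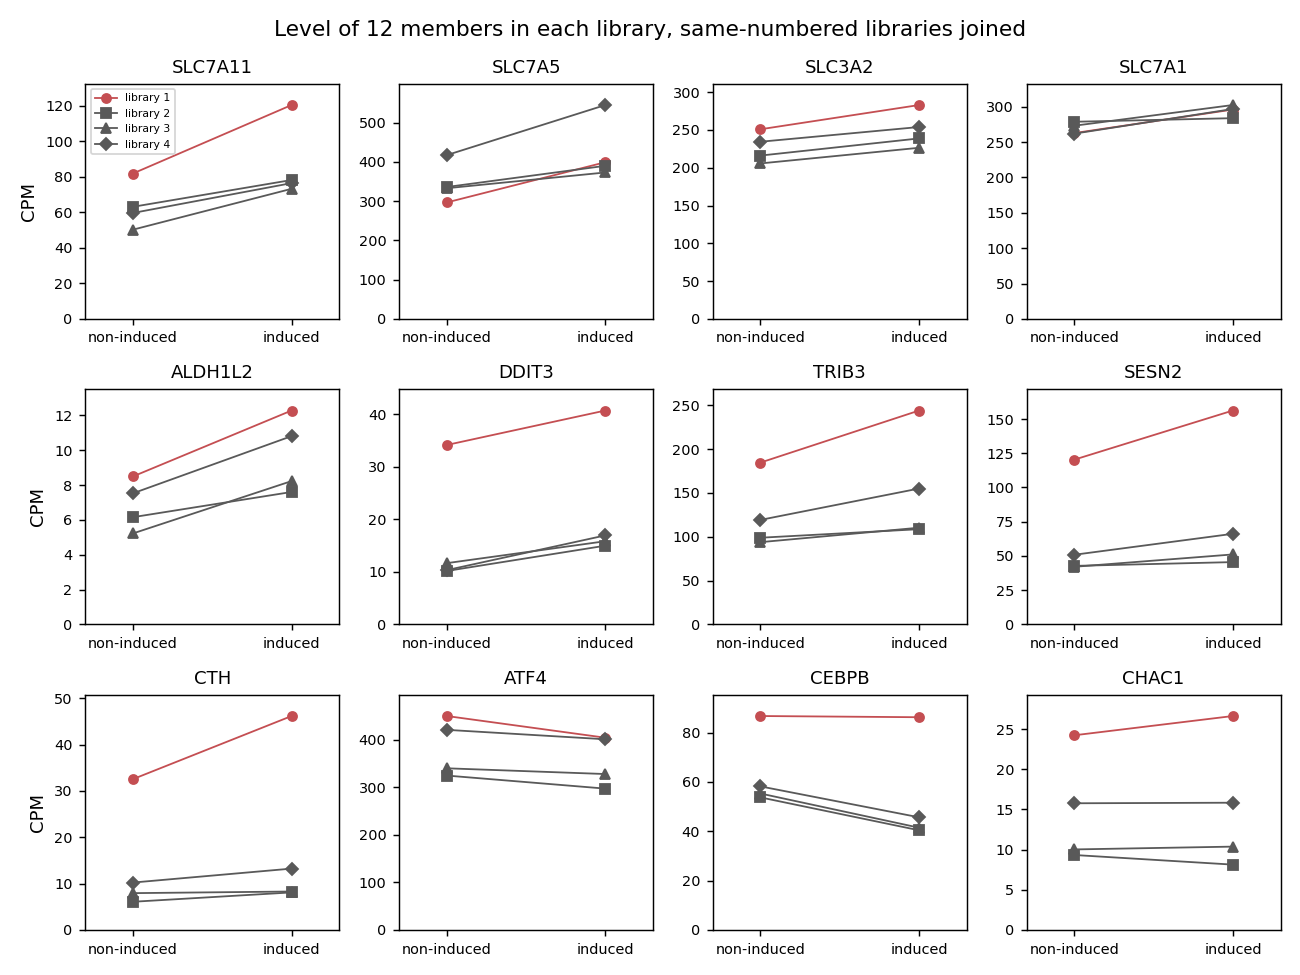
Level of 12 members in each library. The y axes give CPM from 0, the x axis the group; lines join libraries of the same number, and library 1 is red. The lines of SLC7A11, SLC7A5, SLC3A2 and SLC7A1 all slope upward, those of ATF4 slope down, as do those of CEBPB outside library 1, and library 1 starts far above the rest in DDIT3, SESN2 and CTH.

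ATF4 itself (ENSG00000128272; chromosome 22, 39519695 to 39522685, plus strand) was not called. Its mRNA stood at 450.4, 325, 340.3 and 421 CPM in non-induced and at 405, 297, 328 and 401 CPM in induced cells. It was lower in 4 of 4 pairs, by a log2 change of -0.10 (SE 0.034, edgeR adjusted p = 0.0659), and passed in 2 of the 12 blocked fits, with upper-quartile scaling (0.0317) and with a filter at 10 CPM (0.0414). DDIT3 (ENSG00000175197; chromosome 12, 57516588 to 57521737, minus strand) codes for CHOP, a C/EBP family factor linked to death under prolonged stress. It had 34.2, 10.2, 11.7 and 10.3 CPM in non-induced and 40.7, 15.0, 15.8 and 16.9 CPM in induced libraries. Libraries 2 to 4 separate by group, while both libraries numbered 1 lie far above them. This is a log2 change of 0.46 (SE 0.078, edgeR adjusted p = 0.00175), the largest of the regulators. Of the 1307 exon bases of DDIT3, 355 are shared on the opposite strand with MARS1, which was 231 and 226 CPM in the means of the groups and was not called (log2 change -0.03). MBD6 shares 58 exon bases with DDIT3, also on the opposite strand. It had 45.4 and 45.9 CPM in the means of the groups and was not called (log2 change 0.01). Whether counting used the strand is not given in the sources used here, and the effect of these overlaps on the DDIT3 count was not tested.

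TRIB3 (ENSG00000101255; chromosome 20, 362835 to 397559, plus strand), a pseudokinase that is induced by ATF4 and DDIT3 and restrains them, stood at 185, 98.9, 93.8 and 119 CPM without induction. Induced libraries held 244, 109, 110.3 and 155 CPM, a log2 change of 0.29 (SE 0.046, edgeR adjusted p = 0.00123). SESN2 (ENSG00000130766; chromosome 1, 28259527 to 28282491, plus strand) codes for Sestrin2, a leucine-binding restraint on mTORC1. It had 120.3, 42.7, 42.0 and 50.8 CPM in non-induced and 156, 45.5, 51.1 and 66.2 CPM in induced libraries. All pairs were higher for both genes, the smallest rises being those of pair 2 (1.1- and 1.06-fold), and SESN2 changed by 0.29 on the log2 scale (SE 0.050, edgeR adjusted p = 0.00214). CEBPG (ENSG00000153879; chromosome 19, 33373330 to 33382686, plus strand), a C/EBP partner of ATF4 at amino acid response elements, had 103, 58.0, 56.6 and 70.1 CPM and, after induction, 118, 60.9, 63.4 and 76.5 CPM. This is a log2 change of 0.14 (SE 0.041, edgeR adjusted p = 0.0366). DDIT3, TRIB3 and SESN2 passed in all 12 blocked fits, whereas CEBPG missed without pair 1, 3 or 4 (0.149, 0.175 and 0.106) and in DESeq2 (0.205).

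CEBPB (ENSG00000172216; chromosome 20, 50190734 to 50192689, plus strand), another C/EBP factor, was the only member that fell. It stood at 86.7, 53.7, 55.3 and 58.2 CPM before and at 86.2, 40.4, 41.4 and 45.6 CPM after induction. Pair 1 was level and the other pairs dropped to 0.749 to 0.785 of the non-induced value. On the log2 scale the change was -0.29 (SE 0.067, edgeR adjusted p = 0.0191), and -0.40 without pair 1 (0.000212). The call was lost without pair 2, 3 or 4 (0.0596, 0.0582 and 0.121). The antisense CEBPB-AS1 shares 231 of its 1956 exon bases and reached at most 2.68 CPM in any library. The remaining regulators were not called. DDIT4, an mTORC1 inhibitor, had 137.5, 18.7, 17.4 and 24.2 CPM and then 148, 13.2, 15.1 and 22.9 CPM. NUPR1, a small stress-induced chromatin protein, had 4.32, 0.373, 0.233 and 1.31 CPM and then 3.84, 0.306, 0.428 and 1.21 CPM. In both, library 1 exceeds the rest of its group by far more than any induced library exceeds its partner. PPP1R15A, the phosphatase subunit that reverses eIF2 phosphorylation, had 197 ± 62.0 and 194 ± 73.5 CPM (SD, n = 4; edgeR adjusted p = 0.539).

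In the serine and one-carbon class the largest rise was that of ALDH1L2 (ENSG00000136010; chromosome 12, 105019784 to 105084577, minus strand), the mitochondrial formyltetrahydrofolate dehydrogenase, which makes NADPH from folate-bound carbon. It had 8.49, 6.15, 5.22 and 7.53 CPM in non-induced and 12.3, 7.6, 8.23 and 10.8 CPM in induced libraries. Every pair was higher, by 1.235- to 1.58-fold, and the log2 change of 0.50 was the largest of the 11 rises (SE 0.092, edgeR adjusted p = 0.00291). PSAT1 (ENSG00000135069; chromosome 9, 78297143 to 78330093, plus strand), the phosphoserine aminotransferase, had 199.5, 126, 121 and 170.1 CPM and then 222, 131, 134 and 187 CPM. This is a log2 change of 0.12 (SE 0.036, edgeR adjusted p = 0.0325), and it missed without pair 1, 3 or 4 (0.103, 0.174 and 0.125) and in DESeq2 (0.137). The other enzymes of serine synthesis were not called. PHGDH, which commits glycolytic carbon to serine, had 115 ± 20.8 and 121 ± 28.1 CPM (log2 change 0.07, edgeR adjusted p = 0.275), and PSPH, which releases serine, had 21.7 ± 4.54 and 23.5 ± 7.12 CPM (0.09, 0.433). The mitochondrial folate enzymes SHMT2 and MTHFD2 had log2 changes of 0.01 and 0.03 with SEs of 0.038 and 0.034 (edgeR adjusted p = 0.88 and 0.638). Of the 8507 exon bases of ALDH1L2, 145 are shared on the opposite strand with C12orf45, which had 19.1 and 17.5 CPM in the means of the groups and was not called, and the part of this overlap in the ALDH1L2 count was not tested. ALDH1L2 passed in each of the 11 blocked fits that tested it, the filter at 10 CPM having removed it.

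The 6 cytosolic synthetases WARS1, SARS1, EPRS1, NARS1, GARS1 and MARS1 attach tryptophan, serine, glutamate and proline, asparagine, glycine and methionine to their tRNAs. Their log2 changes lay between -0.03 for MARS1 and 0.10 for EPRS1, with SEs of 0.033 to 0.040 and edgeR adjusted p from 0.128 to 0.80. EPRS1 was 356, 258, 242 and 261 CPM in non-induced and 352, 266, 279 and 289 CPM in induced libraries, and GARS1 346, 238, 237 and 292 CPM against 362, 239, 256 and 303 CPM. In EPRS1 pair 1 was level and pairs 3 and 4 differed most, whereas in GARS1 pair 2 was level, and the groups overlap in both genes. The motif shown above lies in the windows of NARS1, GARS1 and MARS1, whose levels were 311 ± 50.3 and 308 ± 47.6, 278 ± 51.9 and 290 ± 55.2, and 231 ± 39.7 and 226 ± 38.7 CPM in non-induced and induced cells (SD, n = 4). Of the 10 members that were called and had a window, 3 held the motif, and of the 18 that were not called, 6 did.

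Of the other enzymes and secreted factors 1 was called, CTH (ENSG00000116761; chromosome 1, 70411218 to 70439851, plus strand), the cystathionine gamma-lyase that makes cysteine from methionine sulfur. It had 32.5, 6.06, 7.92 and 10.2 CPM in non-induced and 46.1, 8.08, 8.28 and 13.2 CPM in induced libraries. All pairs were higher, pair 3 by 1.04-fold and the others by 1.29- to 1.42-fold, with a log2 change of 0.37 (SE 0.082, edgeR adjusted p = 0.00943). The call was lost without pair 1 (0.114) or pair 4 (0.0516) and in DESeq2 (0.0626). ASNS (ENSG00000070669; chromosome 7, 97852118 to 97872542, minus strand), a standard readout of ATF4, had 5.07, 1.73, 1.49 and 1.73 CPM and then 5.16, 1.57, 1.47 and 2.31 CPM. At this level the change of 0.06 had an SE of 0.16 (edgeR adjusted p = 0.835). Of its 4455 exon bases, 1985 are shared on the same strand with the processed transcript AC079781.5, which stayed at or below 0.233 CPM. What this overlap took from the ASNS count was not tested. CHAC1, which degrades glutathione and responds sharply to ATF4 and DDIT3, had 24.2, 9.33, 10.02 and 15.8 CPM and then 26.6, 8.13, 10.4 and 15.8 CPM (log2 change 0.01, edgeR adjusted p = 0.929). GPT2, PCK2, VLDLR and STC2 had log2 changes of 0.03, 0.11, 0.16 and -0.07, none called (edgeR adjusted p = 0.727, 0.108, 0.269 and 0.653). STC2, a secreted glycoprotein, was called lower once pair 1 was left out (-0.18, 0.0103).

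The libraries numbered 1 stood apart for these genes in both groups. In 30 of 34 members (88.2%) library 1 was the highest of the 4 non-induced and also of the 4 induced libraries, against 28.2% of all tested genes. It was the lowest of both groups for 0 members, against 28.1% of all tested genes. DDIT4 was 6.84-fold the mean of libraries 2 to 4 in non-induced and 8.67-fold in induced cells. The ratios were 6.75 and 5.94 for NUPR1, 4.03 and 4.68 for CTH, 3.19 and 2.56 for DDIT3, 3.07 and 2.89 for ASNS, and 2.66 and 2.88 for SESN2. The median ratio over the members was 1.47 and 1.53, and over all tested genes 1.00 and 1.00. For 31 of 34 members this difference between libraries of one group was larger than the change on induction, in both groups. In SLC7A5, SLC7A1 and ALDH1L2 it was not. The share of all tested genes for which this holds was not taken, so the count is not shown to be particular to the members. The 4 members in which library 1 was not the highest of both groups were the transporters SLC7A5, SLC7A1 and SLC1A4 and the secreted factor STC2. The same libraries had the lowest CRB2 level of their groups, 8.29 CPM against 21.7 to 26.3 in non-induced and 1731 against 4246 to 4593 CPM in induced cells. The labels do not say what a library number stands for, and its part in the levels was not tested.

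**Figure D4:**
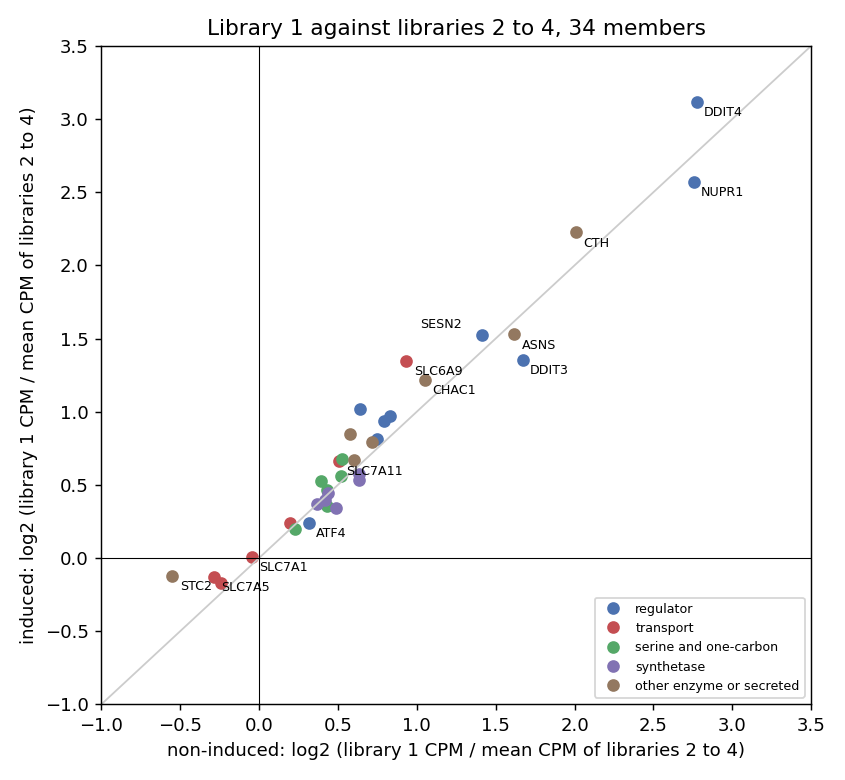
Library 1 against libraries 2 to 4 for the 34 members. The x axis gives log2 of the CPM of library 1 over the mean of the other 3 in non-induced cells, the y axis the same in induced cells; the grey line marks equal values. DDIT4, NUPR1 and CTH lie at the upper right, with ratios of 4.03 to 8.67, and SLC7A5, SLC1A4 and STC2 lie below 0 on both axes.

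With pair 1 left out the blocked test called 7 of 33 tested members higher (21.2%) and 2 lower (6.06%), and NUPR1 was no longer tested. Among all 15769 genes tested then, 5.12% were called higher and 5.79% lower, so the share of members called lower was near that of all genes. Without both libraries numbered 1 and without the block, DDIT3 (log2 change 0.56, edgeR adjusted p = 0.00668) and SLC7A11 (0.39, 0.0159) were higher and CEBPB (-0.40, 0.00554) was lower, against 1.53% higher and 1.91% lower among all genes tested. Of the 11 rises, 6 were called in every blocked fit that tested the gene: DDIT3, TRIB3, SESN2, SLC7A11, SLC7A5 and ALDH1L2.

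The wider pathway was read from a list of 131 further genes, of which 124 were tested. In the blocked test 14 were higher (11.3%) and 3 lower (2.42%), against 7.51% and 6.29% of all tested genes, and the median log2 change was 0.01. Without pair 1 it called 9 higher (7.26%) and 3 lower (2.42%), against 5.12% and 5.79%. DESeq2 with the block called 5 higher (4.03%), near the 3.52% of all tested genes, and 2 lower (1.61%, against 3.24%). Of 17 genes of the eIF2 kinases and the eIF2 machinery 1 was called (5.88%, near the 7.51% of all tested genes). It was EIF2AK2, the kinase PKR that senses double-stranded RNA (log2 change 0.20, SE 0.039, edgeR adjusted p = 0.00432). Of 13 tested further stress-response targets, 4 rose (30.8%) and 2 fell (15.4%). DESeq2 with the block called 0 of the 13 higher and 1 lower (7.69%), against 3.52% and 3.24% of all tested genes. The cytokine GDF15 rose by 0.37 (edgeR adjusted p = 0.0198), with 24.1, 6.29, 6.43 and 6.33 CPM and then 36.4, 8.21, 6.42 and 7.87 CPM, so that pair 3 was level. GDF15 missed without pair 1 (edgeR adjusted p = 0.242) and in DESeq2 with the block (0.14). The tRNA exporter XPOT rose by 0.13 (edgeR adjusted p = 0.019) and missed in DESeq2 (0.0619). The growth-arrest gene GADD45A, in contrast, fell in every pair, from 190.1, 174, 190.0 and 199 CPM to 156, 149, 159.6 and 147 CPM (log2 change -0.30, 0.000404). EIF4EBP1, the translational repressor 4E-BP1, also fell (-0.19, 0.019) but missed in DESeq2 (0.0681), whereas GADD45A passed there (4.1e-06).

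Of 15 tested other amino acid transporters 1 rose and 1 fell (6.67% each), near the 7.51% and 6.29% of all tested genes. SLC7A2, which like SLC7A1 carries arginine and lysine, fell from 46.1, 111, 125 and 102 CPM to 35.0, 76.6, 87.2 and 59.5 CPM, the largest change of the named pathway genes (log2 change -0.56, SE 0.054, edgeR adjusted p = 4.08e-05). SLC7A6, a partner of SLC3A2 that exchanges basic and neutral amino acids, rose from 88.0, 85.9, 82.3 and 80.5 CPM to 90.3, 114, 113 and 102 CPM (0.31, 0.01). The 4 non-induced libraries of SLC7A6 all lie below the 4 induced ones. In the other classes the called genes all rose. They included IARS1 and AARS1 of 17 cytosolic synthetases (0.17 and 0.13), LARS2 and EARS2 of 17 mitochondrial synthetases (0.20 and 0.14), and BCAT1 and GOT1 of 19 further amino acid enzymes (0.20 and 0.15). The shares higher in these classes were 11.8%, 11.8% and 15.8%, and 0% were lower, against 7.51% and 6.29% of all tested genes. DESeq2 with the block called 1 of these 17 cytosolic synthetases (5.88%), 0 of the 17 mitochondrial ones and 2 of the 19 enzymes (10.5%). Over all tested genes it called 3.52% higher. Of the 13 mRNAs of mitochondrial DNA 0 were called by edgeR and 0 by DESeq2 with the block, and 5 had an unadjusted p under 0.05 (38.5%, against 28.5% of all tested genes). Of these, MT-CO2 had the smallest p (log2 change -0.11, edgeR adjusted p = 0.092). For 10 of the 13, library 1 was the lowest of both groups, the reverse of its place among the ATF4 targets.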

How the data were processed

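Read counts per gene (Ensembl identifiers, whole numbers, not normalized) were used as the authors deposited them; their second table, of normalized values, was not used here. Libraries were made from total RNA with a NEBNext directional kit and sequenced as single reads of 75 bases, per the labels' protocols. The submitters' processing notes name the builds hg38 and GRCh38 and, with no order, HISAT2 2.1.0, Trimmomatic 0.38, bcl2fastq, DESeq2 1.24.0 and HTSeq 0.11.1. Neither the annotation release nor the use of strand in counting is given in the sources used here. Of 58395 genes, 58275 matched GENCODE release 29, which gave positions and exon lengths, and 15637 were kept by filterByExpr (minimum count 10).

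Counts were scaled by TMM and compared in edgeR 4.0.16 under R 4.3.3 (two-sided quasi-likelihood test, robust, Benjamini-Hochberg over all tested genes), first without and then with the replicate number as a block. CPM values use the scaled totals. Over 11500 genes with a mean log2 CPM above 2, deviations from the group means correlated at 0.911, 0.704, 0.707 and 0.648 in same-numbered libraries, against -0.775 to 0.667 in others, and library 1 of each group lay far from the others; the numbers were therefore taken to pair the libraries. Whether replicates were separate cultures is not in the labels; the p-values measure only the spread between these libraries, which may be technical. A count of 0 allows up to 3 reads, which is 0.13 to 0.178 CPM depending on the library, and covers counting error only. Only the edgeR test was tried on simulated counts, with known changes larger than any called among the members. The simulation therefore does not cover changes of the size reported here.

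The members and lists were chosen with earlier results of these data known. Values per library are given for ATF4, DDIT3, TRIB3, CHAC1, ASNS, NUPR1 and members past the threshold with or without the block. Of each pathway class, up to 4 called genes with the smallest p are named, or 1 where none was called; a few genes that this rule or the marker lists name are not reported here. Values per library of DDIT4, EPRS1 and GARS1 were added after they were seen. Alternatives were DESeq2 1.42.0, RLE, upper-quartile and total-count scaling, no filter, a filter at 10 CPM, non-robust estimation, an FDR of 0.01, and leaving out single libraries, pairs or both libraries numbered 1.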

Additional observations from a re-analysis of the deposited data

Results flagged for a closer look

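In each group of 4 libraries the highest and lowest value was compared with the rest by Dixon's ratio at its 95% critical value. Over 68 groups of 34 genes this singled out 16 values, 14 of them in a library numbered 1 and each the highest of its group. Chance alone does so in about 1 in 20 independent groups, but these groups share the same libraries and are not independent. The share of such groups over all tested genes was not taken, so these flags are not shown to be particular to the members. In both groups library 1 stood apart for DDIT3 (34.2 CPM non-induced and 40.7 CPM induced), CEBPB (86.7 and 86.2 CPM), DDIT4 (137.5 and 148 CPM) and CTH (32.5 and 46.1 CPM). In the non-induced group alone it stood apart for SESN2 (120.3 CPM), SHMT2 (262 CPM), EPRS1 (356 CPM), ASNS (5.07 CPM) and VLDLR (27.9 CPM), and in the induced group alone for SLC7A11 (120.5 CPM). The 2 values not from library 1 were those of the transporters SLC7A5 (545 CPM) and SLC1A4 (46.1 CPM) in induced library 4.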

How the results depend on the processing

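Without the replicate block 6 genes passed in edgeR, and with it 2159. DESeq2 called 187 without and 1058 with the block. With the block the count was 2150 with RLE, 2208 with upper-quartile and 2199 with total-count scaling, 2711 without the filter (37 unblocked), 1996 at 10 CPM and 2067 without robust estimation. It was 1721, 1969, 1254 and 909 without pairs 1 to 4. Without both libraries numbered 1 and unblocked it was 543, and at an FDR of 0.01 it was 3 unblocked and 895 blocked. Leaving out single libraries, unblocked, gave 3 to 16 genes.

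Of the members, 0 were called higher and 0 lower without the block. With the replicate block, which pairs the libraries, 11 were higher and 1 lower, and so they were with RLE or total-count scaling, without the filter or without robust estimation. Upper-quartile scaling gave 11 and 2, the 10 CPM filter 10 and 2 (ATF4 the second in both), DESeq2 7 and 1, and an FDR of 0.01 7 and 0. Without pairs 1 to 4, 7, 11, 7 and 7 were higher, and without pair 1 2 were lower. Without both libraries numbered 1, unblocked, 2 were higher and 1 lower.

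When single libraries were left out, unblocked, the median log2 change moved between -0.083 and 0.26 for all members, -0.24 and 0.57 for regulators, 0.14 and 0.31 for transporters, -0.057 and 0.22 for serine and one-carbon genes, -0.086 and 0.20 for synthetases, and -0.21 and 0.36 for the others. The lowest and highest values came without induced library 1 and without non-induced library 1, except that the highest transporter median came without non-induced library 4. With the 10 CPM filter, which removed SLC6A9, the transporter median was 0.14 both unblocked and blocked. Of 1385 single-gene values, 81 changed sign with the gene called in neither fit. Beyond the fewer samples or genes tested, the cause of these shifts was not tested. ASNS, NUPR1 and SLC6A9, at 5.21 CPM or less in every library, are limited by depth.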

Other observations

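The glutamine synthetase gene GLUL, picked after its values were seen, had 0 and 0.051 CPM in the libraries numbered 1 and 3.03 to 3.76 CPM in the other 6, whereas 30 of 34 members stood highest in the libraries numbered 1. Its blocked log2 change on induction was 0.10 (edgeR adjusted p = 0.741).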
